A study of Homo sapiens with 8 samples.

Results

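Antigen presentation by MHC class I was followed through 9 genes in ES2 cells, a human ovarian cancer line, with and without KDM1A and with and without LY500307. The 9 genes were given as a list of names, drawn up with earlier results of these data known: the heavy chain genes HLA-B, HLA-C, HLA-E and HLA-F, the light chain gene B2M, the peptide transporter genes TAP1 and TAP2, the tapasin gene TAPBP, and NLRC5. All 9 were among the 23228 genes listed, and 8 of them had enough reads to be among the 13498 genes tested. HLA-F did not. HLA-C, HLA-E and HLA-B, which encode the chain that holds the peptide, and NLRC5, their transcriptional activator, were higher in KDM1A knockout cells than in control cells under vehicle. B2M and TAPBP were lower. After LY500307, TAP1 was higher and TAP2 lower in both cell populations, and HLA-C and B2M were lower in knockout cells. The call of HLA-B and those with LY500307 in knockout cells were each lost in some fits that changed a setting or left out a library. No member was shown to respond to LY500307 differently in knockout and control cells.

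Class I molecules carry peptides from inside the cell to its surface, where CD8+ T cells and natural killer cells read them. Proteasomes cut the peptides, the TAP1 and TAP2 dimer pumps them into the endoplasmic reticulum, and tapasin bridges the transporter to empty heavy chains paired with beta-2-microglobulin. NLRC5 has no DNA-binding domain of its own and acts at class I promoters through the RFX, CREB/ATF and NF-Y proteins bound there. Interferons raise most of these genes in many cell types, and tumours that lose them can be missed by T cells.

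The groups were KDM1A knockout cells with LY500307, KDM1A knockout cells with vehicle, control cells with LY500307 and control cells with vehicle, with 2 libraries each. KDM1A is a histone demethylase, also called LSD1, and LY500307 is an agonist of oestrogen receptor beta, given at 5 µM for 48 h. The edit, the type of control cell, the vehicle, and whether knockout cells were a pool or 1 clone were not given in the sources used here. By the labels, the duplicates are runs of the sequencer, and no separate cultures are named. The p-values therefore measure the spread between these libraries alone, and that spread may be technical. In bulk RNA, fewer cells that express a gene and less RNA per cell cannot be told apart.

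Libraries held 24348937 to 30131097 counts over genes. KDM1A stood at 72.0 and 71.6 CPM (counts relative to the scaled library size) in knockout cells with LY500307, 75.6 and 77.8 CPM in knockout cells with vehicle, 238 and 241 CPM in control cells with LY500307, and 220.0 and 219 CPM in control cells with vehicle. It was thus lower in all 4 knockout libraries, with reads remaining. Of the blood cell markers, CD3E, MS4A1 and NKG7 were at 0 in every library and PTPRC averaged at most 0.0711 CPM in a group. The 9 blood cell markers summed to 62.4 to 74.3 CPM in knockout cells with LY500307, 61.8 to 62.1 CPM in knockout cells with vehicle, 111 to 113 CPM in control cells with LY500307 and 96.6 to 101 CPM in control cells with vehicle. Nearly all of that sum was CD68. The 5 endothelial markers, mostly CDH5, summed to 26.7 to 31.8 CPM in knockout cells with LY500307, 32.9 CPM in both libraries of knockout cells with vehicle, 83.1 to 88.6 CPM in control cells with LY500307 and 103 to 105 CPM in control cells with vehicle. The 7 mesothelial and fibroblast markers, mostly PDGFRA, summed to 21.4 to 22.1 CPM in knockout cells with LY500307, 14.5 to 15.4 CPM in knockout cells with vehicle, 85.9 to 89.0 CPM in control cells with LY500307 and 65.8 to 66.3 CPM in control cells with vehicle. PECAM1, VWF, DCN and MSLN averaged at most 0.141, 0.0853, 0.0710 and 0.0426 CPM. Within these lists LUM, CALB2 and TEK went the other way and were called higher in knockout cells under vehicle and under LY500307, at low levels. LUM averaged 2.11 and 1.48 CPM in knockout cells with LY500307 and with vehicle, against 0 and 0.0426 CPM in control cells with LY500307 and with vehicle. CALB2 averaged 0.414 CPM in knockout cells with LY500307, 0.390 with vehicle, 0.0357 in control cells with LY500307 and 0.107 with vehicle. TEK averaged 0.566 CPM in knockout cells with LY500307, 0.366 with vehicle, 0.177 in control cells with LY500307 and 0.0426 with vehicle. The epithelial genes KRT7 and KRT18 averaged at least 257 and 143 CPM in each group, while EPCAM and CDH1 averaged at most 1.49 and 0.874 CPM, and the mesenchymal gene VIM averaged at least 7501 CPM. These markers also moved with the knockout, in both directions. Under vehicle KRT7 and PAX8 were higher in knockout cells, by 0.50 and 1.57 on the log2 scale, and KRT18, KRT8 and EPCAM were lower, at -1.02, -1.87 and -1.39 (edgeR). VIM was higher by 0.51, while the mesenchymal genes FN1 and CDH2 were lower, at -1.94 and -1.40. The part of all these marker changes in the results below was not tested.

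The RefSeq promoter table (GRCh38.p14, 250 bases before to 50 after a start) held 8 promoters of 7 members, 2 of them for TAP1. It held none for HLA-E and NLRC5, so the motif counts leave these out. Those of 6 members are printed below, without HLA-F, which was not tested. Among the 6, HLA-B and HLA-C were higher, and B2M and TAPBP lower, in knockout than in control cells under vehicle. With LY500307 against vehicle, TAP1 and TAP2 parted, while HLA-C and B2M were both lower in knockout cells. All 6 are written 5′ to 3′ in the direction of transcription, B2M on the plus strand and the others on the minus strand. Capitals mark every match, on either strand, to AANNGAAA (the core of an interferon response element), CCAAT (the NF-Y box), TGACG (a cyclic AMP response core) or GGGNNTT followed by NCC (an NF-kB site). TAP1 is shown at the start farther from TAP2. The regions are chr6:31357130-31357429 for HLA-B, chr6:31272043-31272342 for HLA-C, chr15:44711267-44711566 for B2M, chr6:32853655-32853954 for TAP1, chr6:32838690-32838989 for TAP2 and chr6:33314029-33314328 for TAPBP.
HLA-B: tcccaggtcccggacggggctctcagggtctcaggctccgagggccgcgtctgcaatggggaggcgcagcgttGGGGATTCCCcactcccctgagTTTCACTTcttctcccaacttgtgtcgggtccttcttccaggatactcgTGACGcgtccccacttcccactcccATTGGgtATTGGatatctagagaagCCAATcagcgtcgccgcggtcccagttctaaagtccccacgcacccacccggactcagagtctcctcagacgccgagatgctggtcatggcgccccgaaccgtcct
HLA-C: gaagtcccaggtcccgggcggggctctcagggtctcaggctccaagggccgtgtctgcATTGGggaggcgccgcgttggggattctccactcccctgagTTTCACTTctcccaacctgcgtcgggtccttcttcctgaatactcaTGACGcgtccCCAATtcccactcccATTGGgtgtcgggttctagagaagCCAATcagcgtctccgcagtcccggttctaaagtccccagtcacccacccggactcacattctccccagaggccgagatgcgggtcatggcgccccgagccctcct
B2M: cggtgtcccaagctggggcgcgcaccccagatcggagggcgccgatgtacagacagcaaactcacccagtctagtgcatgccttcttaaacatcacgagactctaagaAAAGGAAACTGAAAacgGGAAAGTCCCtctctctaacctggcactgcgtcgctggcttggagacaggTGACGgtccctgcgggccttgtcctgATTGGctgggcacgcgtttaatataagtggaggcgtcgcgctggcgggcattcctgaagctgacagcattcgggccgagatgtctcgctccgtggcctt
TAP1: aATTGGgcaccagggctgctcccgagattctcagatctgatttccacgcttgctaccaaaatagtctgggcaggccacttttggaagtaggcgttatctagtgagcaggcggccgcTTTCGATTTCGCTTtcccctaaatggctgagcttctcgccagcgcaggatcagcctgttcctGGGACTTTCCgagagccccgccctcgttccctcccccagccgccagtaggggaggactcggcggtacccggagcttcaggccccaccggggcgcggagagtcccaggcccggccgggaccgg
TAP2: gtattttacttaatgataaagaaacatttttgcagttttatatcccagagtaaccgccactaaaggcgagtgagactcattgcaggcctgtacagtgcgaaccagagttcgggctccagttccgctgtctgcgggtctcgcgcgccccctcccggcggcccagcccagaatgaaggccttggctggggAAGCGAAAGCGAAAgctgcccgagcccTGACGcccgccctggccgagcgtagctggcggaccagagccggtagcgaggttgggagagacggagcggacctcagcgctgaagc
TAPBP: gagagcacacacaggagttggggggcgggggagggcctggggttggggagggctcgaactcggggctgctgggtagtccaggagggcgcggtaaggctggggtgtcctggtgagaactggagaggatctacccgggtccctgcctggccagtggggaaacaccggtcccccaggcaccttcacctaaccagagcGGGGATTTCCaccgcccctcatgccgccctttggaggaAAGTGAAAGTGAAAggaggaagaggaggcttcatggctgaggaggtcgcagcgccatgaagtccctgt

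The interferon core was in 7 of the 8 member promoters and in 22.8% of all 35116 promoters in the table. The NF-Y box was in 5 of 8 and 34.6%, the cyclic AMP response core in 4 of 8 and 24.6%, and the NF-kB site in 4 of 8 and 5.68%. Matches to different motifs did not overlap in the sequences shown, while the interferon core matched as an overlapping pair in B2M, TAP1, TAP2 and TAPBP. A match is a description of letters and not a bound site. HLA-B and HLA-C promoters had 88.5% identical bases, and HLA-F had 79.7% with HLA-B and 78.9% with HLA-C. Every other pair of the 7 members with a promoter had at most 52.3%, and HLA-E and NLRC5 were not compared.

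In GRCh37 (hg19), the build of the counts, 7 members lie in the MHC on chromosome 6. HLA-F is at 29690552-29706305 and HLA-E at 30457286-30461971 on the plus strand. HLA-C at 31236526-31239907, HLA-B at 31321649-31334844, TAP2 at 32789610-32806516, TAP1 at 32812986-32821593 and TAPBP at 33267471-33282061 are on the minus strand. B2M is at 45003556-45011049 on chromosome 15 and NLRC5 at 57023397-57117443 on chromosome 16, both on the plus strand. The heavy chain genes share sequence: of the 50-base windows of the main transcript, 2.56% in HLA-B, 6.76% in HLA-C, 6.16% in HLA-E and 1.89% in HLA-F also occur in a transcript of another gene. Reads there cannot be placed with certainty, and alleles of ES2 that differ from the reference may also lose reads. The share of such windows was 6.98% in TAPBP and 1.18% in TAP1, where reads have the same limit. For TAP2 it was 35.3%, and an unnamed gene overlaps its exons on the same strand. How much of the TAP2 share belongs to that gene was not tested. HLA-B, HLA-F, TAP1 and TAPBP have exons that overlap a gene on the opposite strand, which cannot be told apart here since the strand setting was not given in the sources used here.

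**Figure D1:**
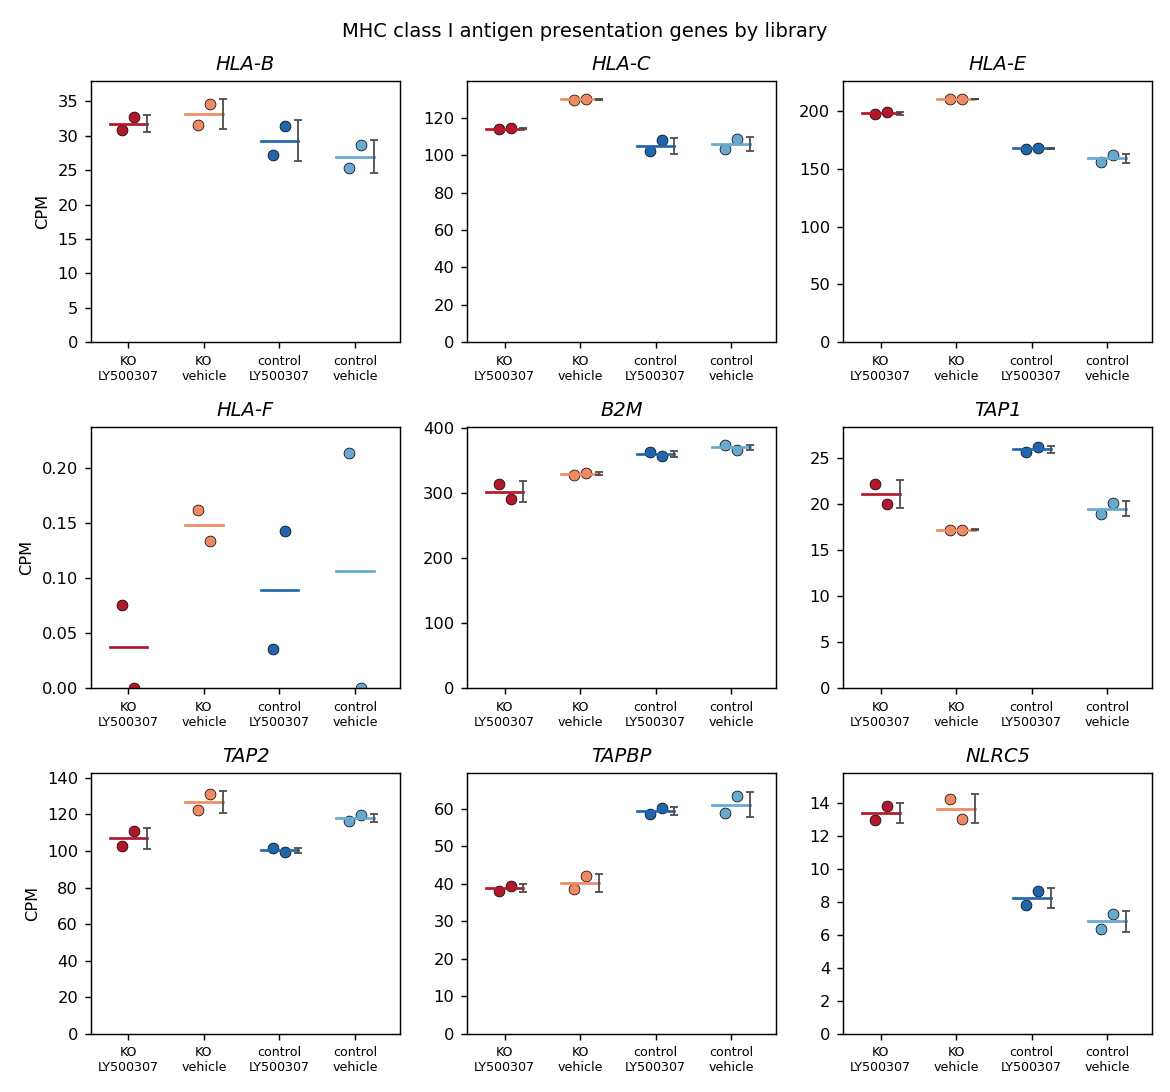
Expression of the 9 members in CPM (y axes, linear and from 0) in each library, by group. Points are libraries, coloured lines are means and grey bars are SD of 2 libraries, left out for HLA-F, whose 8 libraries held 0 to 5 counts each; the knockout points of HLA-E and NLRC5 lie above, and those of B2M and TAPBP below, all 4 control points.

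Loss of KDM1A went with more heavy chain RNA under vehicle. HLA-E, which presents peptides from the leaders of other class I chains to natural killer cell receptors, stood at 197 and 199 CPM in knockout cells with LY500307, 210.1 and 210.4 CPM in knockout cells with vehicle, 167 and 168 CPM in control cells with LY500307, and 156 and 162 CPM in control cells with vehicle. The knockout libraries did not overlap the control libraries under either treatment. HLA-E rose in knockout cells by a log2 fold change of 0.40 under vehicle (SE 0.047, adjusted p = 3.17e-09, edgeR quasi-likelihood test with Benjamini-Hochberg adjustment) and 0.24 under LY500307 (SE 0.046, adjusted p = 2.85e-05).

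HLA-C, a classical chain read by T cells and by killer-cell immunoglobulin-like receptors, stood at 114.0 and 114.3 CPM in knockout cells with LY500307, 129.7 and 130.2 CPM in knockout cells with vehicle, 102 and 108 CPM in control cells with LY500307, and 103 and 109 CPM in control cells with vehicle. Knockout libraries were again higher without overlap under both treatments. HLA-C rose by 0.29 under vehicle (SE 0.053, adjusted p = 1.11e-05). Under LY500307 the difference was 0.12 (SE 0.053, adjusted p = 0.0451, edgeR), a call that was lost with DESeq2 (adjusted p = 0.0744), without the low-count filter, with only the groups compared in the fit, and when any library other than replicate 2 of control cells with LY500307 was left out (adjusted p up to 0.315).

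HLA-B, the other classical chain followed here, stood at 30.9 and 32.7 CPM in knockout cells with LY500307, 31.5 and 34.6 CPM in knockout cells with vehicle, 27.2 and 31.4 CPM in control cells with LY500307, and 25.3 and 28.6 CPM in control cells with vehicle. The knockout and control libraries did not overlap under vehicle and overlapped under LY500307. HLA-B rose by 0.30 under vehicle (SE 0.086, adjusted p = 0.00306, edgeR). That call was lost without replicate 2 of knockout cells with vehicle (0.23, adjusted p = 0.0716) or replicate 1 of control cells with vehicle (0.21, adjusted p = 0.0822). Under LY500307 the difference was 0.12 with a 95% interval of -0.05 to 0.29 and an adjusted p of 0.222.

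HLA-F, a nonclassical chain, had 2 and 0 counts in knockout cells with LY500307, 4 and 4 in knockout cells with vehicle, 1 and 4 in control cells with LY500307, and 5 and 0 in control cells with vehicle. The groups overlapped, and a difference was not detectable at this depth.

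B2M, whose protein pairs with every class I heavy chain, moved the other way. It stood at 313 and 290.0 CPM in knockout cells with LY500307, 328 and 331 CPM in knockout cells with vehicle, 362 and 356 CPM in control cells with LY500307, and 373 and 366 CPM in control cells with vehicle. All 4 knockout libraries were below all 4 control libraries. B2M fell by 0.17 on the log2 scale under vehicle (SE 0.044, adjusted p = 0.00137) and fell by 0.25 under LY500307 (SE 0.044, adjusted p = 6.66e-06), both with edgeR.

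The balance between heavy and light chain RNA differed accordingly. The summed CPM of HLA-B, HLA-C and HLA-E divided by that of B2M was 1.09 and 1.19 in knockout cells with LY500307, 1.13 and 1.13 in knockout cells with vehicle, 0.818 and 0.864 in control cells with LY500307, and 0.764 and 0.816 in control cells with vehicle. The ratio was higher in each knockout library than in any control library, and it does not depend on how libraries are scaled. These genes were already known to move in opposite directions, so the ratio is given as a description.

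TAPBP, whose product tapasin holds empty class I molecules at the transporter and edits their peptides, had the largest fall among the members. It stood at 38.2 and 39.6 CPM in knockout cells with LY500307, 38.5 and 42.0 CPM in knockout cells with vehicle, 58.7 and 60.3 CPM in control cells with LY500307, and 58.8 and 63.5 CPM in control cells with vehicle. No knockout library reached a control library. TAPBP fell by 0.60 under vehicle (SE 0.069, adjusted p = 2.2e-09) and fell by 0.61 under LY500307 (SE 0.068, adjusted p = 1.01e-09) on the log2 scale, or to 0.66 and 0.653 of the control level by edgeR.

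NLRC5, the activator of class I transcription, had the largest rise. It stood at 13.0 and 13.9 CPM in knockout cells with LY500307, 14.3 and 13.0 CPM in knockout cells with vehicle, 7.83 and 8.70 CPM in control cells with LY500307, and 6.39 and 7.29 CPM in control cells with vehicle. All 4 knockout libraries were above all 4 control libraries. The log2 fold change was 0.99 under vehicle (SE 0.123, adjusted p = 1.15e-08), a 1.99-fold rise, and 0.70 under LY500307 (SE 0.116, adjusted p = 2.52e-06), a 1.63-fold rise, by edgeR.

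The transporter genes gave smaller differences between knockout and control cells. TAP1 stood at 22.2 and 20.1 CPM in knockout cells with LY500307, 17.3 and 17.2 CPM in knockout cells with vehicle, 25.7 and 26.3 CPM in control cells with LY500307, and 18.9 and 20.1 CPM in control cells with vehicle. Its knockout libraries were lower without overlap within each treatment. TAP1 fell by 0.30 under LY500307 (SE 0.086, adjusted p = 0.00283, edgeR), while under vehicle the difference was -0.18 with a 95% interval of -0.37 to 0.01 (adjusted p = 0.0889).

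TAP2 stood at 103 and 111 CPM in knockout cells with LY500307, 122 and 131 CPM in knockout cells with vehicle, 101 and 99.5 CPM in control cells with LY500307, and 117 and 119.5 CPM in control cells with vehicle. Knockout libraries were higher without overlap within each treatment, by little. The differences of 0.10 under vehicle (95% interval -0.01 to 0.22, adjusted p = 0.0951) and 0.09 under LY500307 (95% interval -0.02 to 0.20, adjusted p = 0.146) did not pass the test by edgeR, and both passed with unscaled library totals (adjusted p = 0.0174 and 0.0480).

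Counted together, 6 of the 8 tested members passed the test between knockout and control cells under vehicle, 4 higher and 2 lower, where 64% of all genes tested passed. The background was 30.7% higher and 33.3% lower. Under LY500307 also 6 of 8 passed, 3 higher and 3 lower, against 66.2% of all genes, 32.6% higher and 33.6% lower. These shares lie near the background, so the number of members called is not in itself a result about them. By libraries that did not overlap under vehicle, 5 members were higher and 3 lower, against 39.5% and 41.8% of all genes. Under LY500307 these were 4 and 3, against 40.1% and 41.2%. The median log2 fold change of the 8 members was 0.20 under vehicle and 0.10 under LY500307, and that of all genes tested was -0.01 under each. Under vehicle the count hides that HLA-B, HLA-C, HLA-E and NLRC5 were called higher while B2M and TAPBP were called lower. Under LY500307 HLA-C, HLA-E and NLRC5 were called higher, HLA-C not in every alternative fit, and B2M, TAPBP and TAP1 were called lower.

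**Figure D2:**
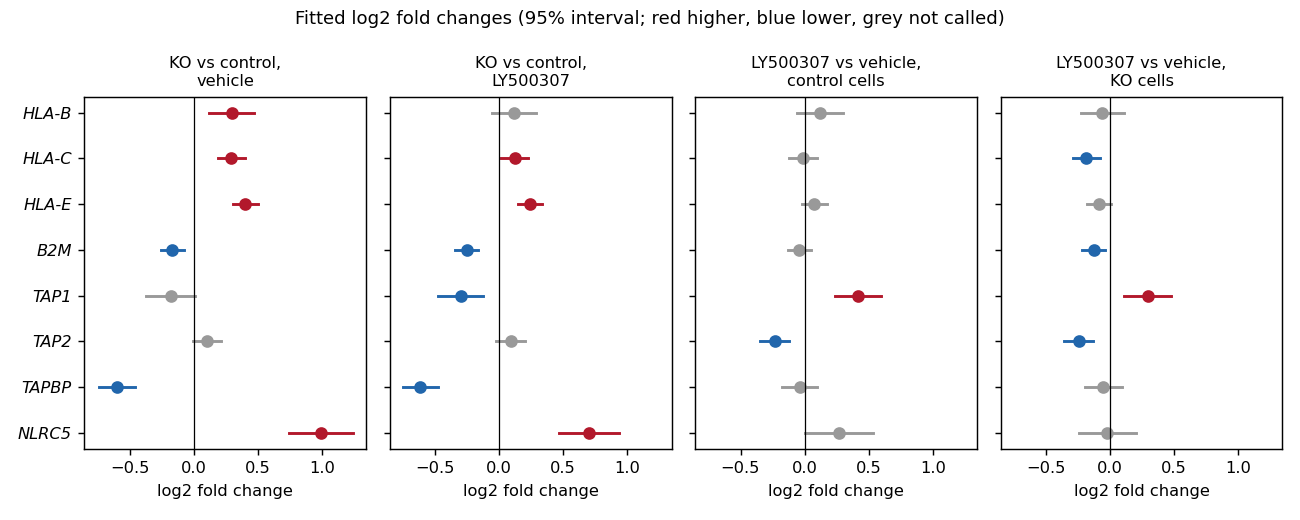
Log2 fold changes of the 8 tested members (x axis) in 4 comparisons, one per panel, fitted with edgeR. Points are estimates and lines 95% intervals, red for called higher, blue for called lower and grey for not called; TAPBP and NLRC5 stand out in the knockout panels, and TAP1 and TAP2 part to opposite sides in the LY500307 panels.

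The transporter genes changed with LY500307. In control cells TAP1 rose by 0.41 (SE 0.089, adjusted p = 0.000698, edgeR), and the LY500307 libraries did not overlap the vehicle libraries. In knockout cells TAP1 rose by 0.29 (SE 0.090, adjusted p = 0.0178, edgeR). The call in knockout cells was lost with DESeq2 (adjusted p = 0.0619) and without any of 3 libraries, replicates 1 and 2 of knockout cells with vehicle and replicate 1 of knockout cells with LY500307 (adjusted p = 0.0792, 0.104 and 0.196).

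TAP2, the partner of TAP1 in the transporter, went down instead. It fell by 0.23 in control cells (SE 0.055, adjusted p = 0.00188) and fell by 0.25 in knockout cells (SE 0.054, adjusted p = 0.00118) with LY500307, by edgeR, without overlap in either. Without replicate 2 of knockout cells with vehicle, the fall in knockout cells was 0.19 with an adjusted p of 0.0609. The TAP1 count per TAP2 count was 0.216 and 0.181 in knockout cells with LY500307, against 0.141 and 0.131 in knockout cells with vehicle. In control cells it was 0.254 and 0.264 with LY500307, against 0.162 and 0.168 with vehicle. LY500307 libraries were higher in each cell population, and each knockout library was lower than the control libraries of its treatment.

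**Figure D3:**
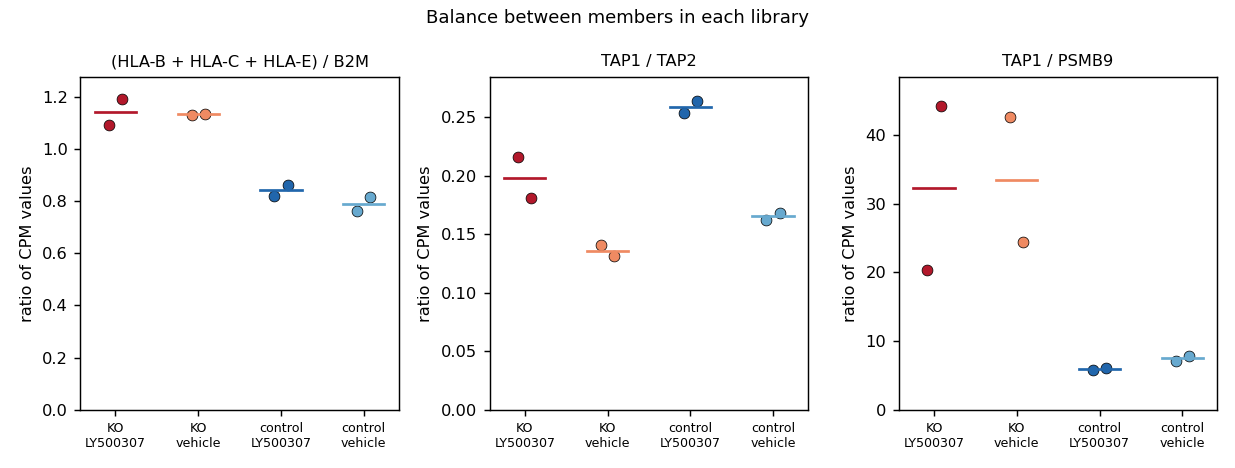
Ratios of CPM between genes in each library (y axes, linear and from 0), by group. Points are libraries and lines are means of 2; heavy chains per B2M separate knockout from control cells, TAP1 per TAP2 is higher with LY500307 in both, and TAP1 per PSMB9 spreads widely in knockout cells, where PSMB9 averaged 0.771 CPM with LY500307 and 0.554 CPM with vehicle.

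HLA-C and B2M changed with LY500307 in knockout cells, by small margins. HLA-C fell by 0.19 there (SE 0.052, adjusted p = 0.00972, edgeR), while in control cells the difference was -0.01 with a 95% interval of -0.12 to 0.10. The fall in HLA-C was not called with unscaled library totals (adjusted p = 0.0740) or without replicate 2 of knockout cells with vehicle (adjusted p = 0.0732). B2M fell by 0.13 in knockout cells (SE 0.044, adjusted p = 0.0393, edgeR), a call lost with library totals (adjusted p = 0.268), in a fit of only the groups compared (adjusted p = 0.0610) and without replicate 1 or 2 of knockout cells with vehicle, replicate 2 of knockout cells with LY500307 or replicate 1 of control cells with LY500307 (adjusted p up to 0.326). Its difference in control cells was -0.04 with a 95% interval of -0.13 to 0.05.

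HLA-B, HLA-E, TAPBP and NLRC5 did not pass the test for LY500307 in either population. NLRC5 differed by 0.27 in control cells (95% interval 0.01 to 0.54, adjusted p = 0.124) and by -0.02 in knockout cells (95% interval -0.24 to 0.20). HLA-E differed by 0.08 in control cells (95% interval -0.02 to 0.17) and by -0.09 in knockout cells (95% interval -0.18 to 0.01). HLA-B differed by 0.12 in control cells (95% interval -0.06 to 0.30) and by -0.06 in knockout cells (95% interval -0.23 to 0.11). TAPBP differed by -0.04 in control cells (95% interval -0.17 to 0.10) and by -0.05 in knockout cells (95% interval -0.20 to 0.09). With library totals, HLA-E and NLRC5 passed in control cells (0.15 and 0.34, adjusted p = 0.0165 and 0.0463, edgeR), and TAPBP took a positive sign in both populations. The median of all genes also moved up with that scaling, to 0.078 in control cells and 0.070 in knockout cells.

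With LY500307, 2 of 8 members passed in control cells, 1 higher and 1 lower, against 26.3% of all genes tested (12.3% higher and 14% lower). In knockout cells 4 of 8 passed, 1 higher and 3 lower, against 20.4% of all genes (9.16% higher and 11.3% lower). Without overlap between libraries, 3 members were higher and 2 lower in control cells, against 32.1% and 31% of all genes. In knockout cells 1 was higher and 4 lower without overlap, against 30.6% and 27.8%. With library totals these counts were 3 higher and 1 lower in control cells, and 1 higher and 1 lower in knockout cells. The count in knockout cells was lower without either replicate of knockout cells with vehicle. Such a fit leaves 1 library in that group, and fewer of all genes were called as well. The drop is therefore not read as a result about the members.

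Knockout cells with LY500307 were also set against control cells with vehicle, which shares libraries with the comparisons above. Here 6 of 8 members passed, 3 higher and 3 lower, against 67.9% of all genes tested (33.1% higher and 34.8% lower). Without overlap 4 were higher and 3 lower, against 40.6% and 41.8% of all genes. NLRC5 differed by 0.97, HLA-E by 0.32 and HLA-B by 0.24, and TAPBP by -0.65, B2M by -0.29 and TAP2 by -0.14, with adjusted p of 0.0228 or less by edgeR. HLA-C (0.11, adjusted p = 0.0731) and TAP1 (0.11, adjusted p = 0.265) were not called. The HLA-B call was lost without replicate 2 of knockout cells with LY500307 (adjusted p = 0.0982) or replicate 1 of control cells with vehicle (adjusted p = 0.221). The TAP2 call was lost with library totals (adjusted p = 0.570), without replicate 1 of knockout cells with LY500307 (adjusted p = 0.216) and without replicate 2 of control cells with vehicle (adjusted p = 0.113). With library totals the split was 5 higher and 2 lower.

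The interaction asks whether the difference between knockout and control cells changed with LY500307. None of the 8 members passed it with edgeR (0 of 8, and 0 with DESeq2), where 1.62% of all genes passed (0.526% with a positive and 1.09% with a negative estimate). HLA-C and HLA-E had an unadjusted p under 0.05. The share of all genes under that unadjusted threshold was not counted, so nothing is read from their number. Their estimates were -0.17 (95% interval -0.33 to -0.02, adjusted p = 0.263) and -0.16 (95% interval -0.30 to -0.03, adjusted p = 0.228). NLRC5 had the lowest estimate at -0.29 with a 95% interval of -0.64 to 0.05, and TAPBP was near 0 at -0.01 with a 95% interval of -0.21 to 0.18. The difference between knockout and control cells under the 2 treatments was therefore not shown to differ for any member.

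Levels per kilobase of the main transcript ordered the members much alike in every group. B2M was highest, at 319.95 ± 17.6 CPM per kb in knockout cells with LY500307, 349 ± 1.98 in knockout cells with vehicle, 381 ± 4.52 in control cells with LY500307 and 392 ± 4.79 in control cells with vehicle (SD, n = 2 each). HLA-C and HLA-E came next, at 74.0 and 77.8 CPM per kb in knockout cells with LY500307, 84.3 and 82.5 in knockout cells with vehicle, 68.1 and 65.8 in control cells with LY500307, and 68.7 and 62.4 in control cells with vehicle. The ranges of HLA-C and HLA-E did not overlap in any group, though they were close, and HLA-E led in knockout cells with LY500307. TAP2 and HLA-B lay between 17.5 and 22.5 CPM per kb in all group means, and their ranges overlapped in knockout cells with vehicle and in control cells with LY500307.

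TAPBP averaged 11.3 CPM per kb in knockout cells with LY500307, 11.7 in knockout cells with vehicle, 17.2 in control cells with LY500307 and 17.7 in control cells with vehicle. In control cells with vehicle its range overlapped that of HLA-B, while in knockout cells it lay below HLA-B and TAP2. TAP1 followed at 7.87 CPM per kb in knockout cells with LY500307, 6.41 in knockout cells with vehicle, 9.68 in control cells with LY500307 and 7.27 in control cells with vehicle. NLRC5 came next at 1.98 CPM per kb in knockout cells with LY500307, 2.02 in knockout cells with vehicle, 1.22 in control cells with LY500307 and 1.01 in control cells with vehicle. HLA-F was last, with group means of at most 0.0999 CPM per kb. Differences between genes also carry the loss of reads in shared sequence.

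Neighbouring genes give the setting of these differences, and this view was added after the values were seen. Within 10 Mb of HLA-B lay 175 other tested genes with a median log2 fold change of 0.0041 between knockout and control cells under vehicle, and within 10 Mb of TAPBP lay 203 with a median of 0.015. HLA-E lay above 141 of its 174 neighbours, and TAPBP lay above 29 of its 203. HLA-B and HLA-C lay above 126 and 125 of their 175, and TAP1 and TAP2 above 65 and 114 of their 189. At 0.30 and 0.29, HLA-B and HLA-C were within the interquartile range of their neighbours (-0.30 to 0.32). They were also within that of all genes tested (-0.37 to 0.33). B2M stood in a different setting: its 105 neighbours on chromosome 15 had a median of -0.50, and B2M at -0.17 lay above 91 of them. Under LY500307 the median of those neighbours was -0.52. NLRC5 at 0.99 lay above 53 of its 62 neighbours on chromosome 16, whose median was 0.26. Under LY500307 NLRC5 at 0.70 lay above 45 of the 62, whose median was 0.35 and upper quartile 0.72. There it was within the interquartile range of its neighbours. The part of a regional shift in the values of B2M and NLRC5 was not tested.

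**Figure D4:**
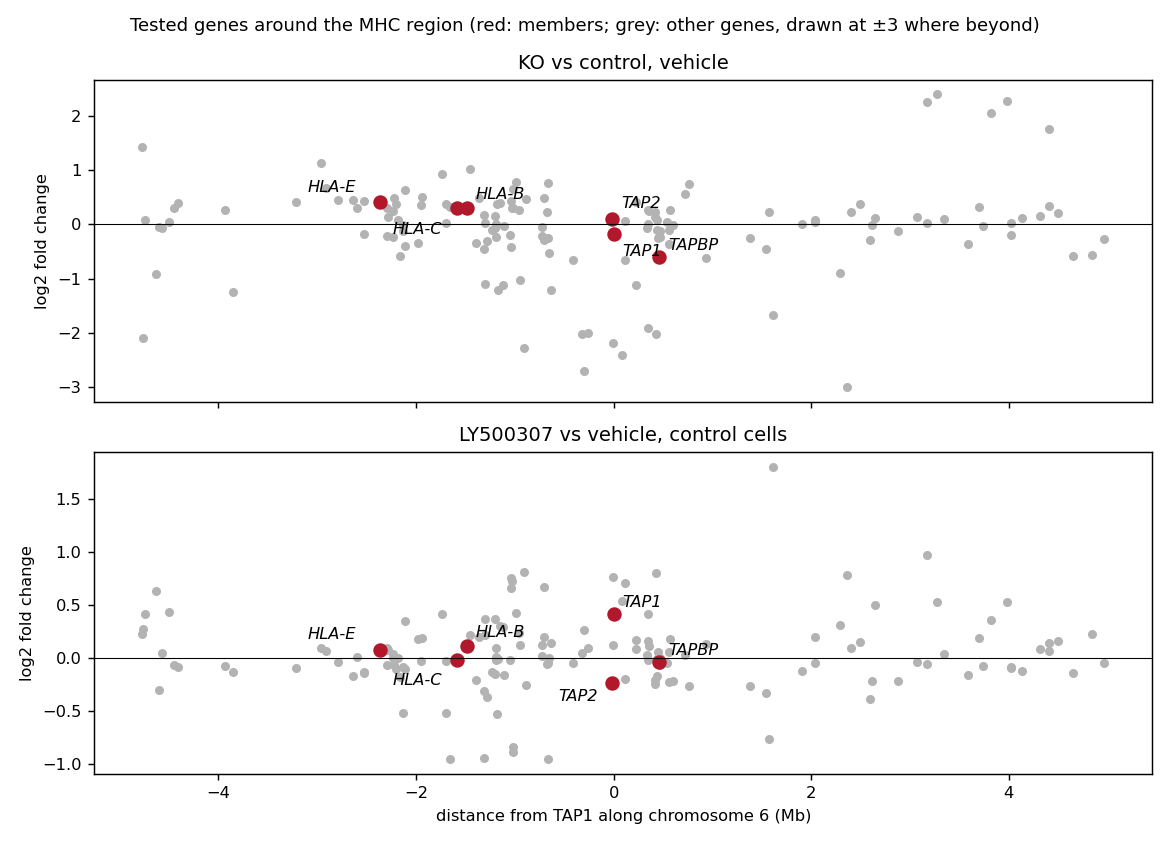
Log2 fold changes (y axes) of tested genes within 5 Mb of TAP1 against their distance from TAP1 along chromosome 6 (x axis, Mb), for knockout against control cells under vehicle above and LY500307 against vehicle in control cells below. Red points are the 6 members tested there and grey points other genes; TAP1 and TAP2 lie side by side, with TAP1 at 0.41 and TAP2 at -0.23 in the lower panel, and genes of every direction surround the members.

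PSMB9, an immunoproteasome subunit gene whose promoter lies next to that of TAP1, had estimates of the same sign as TAP1, and larger ones, in knockout against control cells. It stood at 1.09 and 0.454 CPM in knockout cells with LY500307, 0.405 and 0.703 CPM in knockout cells with vehicle, 4.47 and 4.35 CPM in control cells with LY500307, and 2.64 and 2.56 CPM in control cells with vehicle. All 4 knockout libraries were below all 4 control libraries. PSMB9 fell by 2.19 on the log2 scale under vehicle (SE 0.329, adjusted p = 5.02e-07, edgeR), where TAP1 differed by -0.18. Under LY500307 it fell by 2.53 (SE 0.278, adjusted p = 8.67e-10, edgeR), where TAP1 differed by -0.30. The gap between the changes of these genes was not tested. The TAP1 count per PSMB9 count was 20.4 and 44.2 in knockout cells with LY500307 and 42.6 and 24.5 in knockout cells with vehicle, against 5.75 and 6.03 in control cells with LY500307 and 7.16 and 7.85 in control cells with vehicle. In control cells LY500307 raised PSMB9 by 0.76 (adjusted p = 0.0134, edgeR) beside the rise in TAP1.

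The steps before and beside the members were read from 8 lists, again for knockout against control cells under vehicle first. Among immunoproteasome and proteasome activator genes 0 of 6 rose and 4 fell, the others after PSMB9 being PSMB10 (-0.36), PSMB8 (-0.21) and PSME3 (-0.11). Their median was -0.16. The count of 4 dropped to 2 with library totals or without replicate 2 of control cells with vehicle, and to 1 without replicate 1 of knockout cells with vehicle. Of 14 constitutive proteasome subunit genes 3 rose and 6 fell, with PSMB1 at -0.59, PSMB6 at -0.46, PSMA3 at 0.34 and PSMA5 at 0.32. The median of that list was -0.07, and with library totals 4 rose and 4 fell.

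Peptide trimming and loading genes fell more than they rose, 5 against 3 of 10, with a median of -0.36. ERAP1, the aminopeptidase that trims peptides in the endoplasmic reticulum, averaged 49.1 ± 2.39 CPM in knockout cells with LY500307, 48.5 ± 3.06 in knockout cells with vehicle, 87.0 ± 1.86 in control cells with LY500307 and 81.5 ± 0.138 in control cells with vehicle (SD, n = 2 each), a log2 fold change of -0.75 under vehicle. PDIA3, the tapasin-bound disulphide isomerase of the loading complex, differed by -0.73, and the chaperones CALR and CANX by -0.41 and -0.37. Under LY500307 the split in this list was 3 higher and 6 lower.

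Transcription factors of class I promoters split 6 higher to 3 lower of 13, with a median of 0.21. RFXANK, a subunit of the RFX complex, differed by 0.32 and NFKB1 by 0.28, while NFYB, a subunit of the CCAAT-binding NF-Y complex, differed by -0.73. Interferon receptor and JAK-STAT genes split 7 higher to 5 lower of 13, with a median of 0.18. TYK2, a receptor kinase, differed by 1.09 and STAT2 by 0.81. The genes of this list that fell include inhibitors of the pathway: SOCS3 by -3.84, at 5.79 ± 1.40 CPM in knockout cells with LY500307, 3.85 ± 1.04 in knockout cells with vehicle, 53.8 ± 2.63 in control cells with LY500307 and 55.9 ± 1.29 in control cells with vehicle, and PTPN2 by -1.20.

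Class I-like and natural killer ligand genes split 3 higher to 2 lower of 8 tested, with a median of 0.06. MR1, which presents microbial metabolites to MAIT cells, differed by 1.76, MICA by 1.02 and MICB by 0.48, while FCGRT, the neonatal Fc receptor that also pairs with B2M, differed by -1.44. MHC class II pathway genes went down, 6 against 2 of 9 tested, with a median of -0.66. CD74, the invariant chain, differed by -2.60, HLA-DRB1 by -2.01 and HLA-DPA1 by -1.12, whereas CTSS, a protease that cuts the invariant chain, differed by 1.62. Reported repressors of class I expression split 4 higher to 1 lower of 7 tested, with EZH2, of the Polycomb complex, at -0.42 and SUSD6, listed under its older symbol KIAA0247, at 0.63. The 5 calls in that list dropped to 2 without replicate 2 of knockout cells with vehicle and to 3 without replicate 2 of control cells with vehicle. All these shares stand against 30.7% of genes called higher and 33.3% called lower.

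With LY500307 in control cells, 12.3% of all genes rose and 14% fell. In the trimming and loading list 1 of 10 rose, HSPA5 by 0.17, and 3 fell, THOP1 by 0.19, CALR by 0.18 and PDIA3 by 0.15. With library totals 2 rose and 1 fell, and the count of 4 calls was 2 without replicate 1 of control cells with LY500307. Of 6 immunoproteasome and activator genes PSMB9 rose and PSME3 fell by 0.18. In the JAK-STAT list 4 of 13 rose and 0 fell, beside the 12.3% of all genes that rose: IRF9 by 0.62, STAT2 by 0.30, IFNGR1 by 0.30 and IFNAR1 by 0.19. That count was 7 with library totals, and 2 without replicate 2 of control cells with LY500307 or replicate 2 of control cells with vehicle. None of those 4 JAK-STAT genes was called with LY500307 in knockout cells. There 2 of 13 were called, the inhibitors SOCS3 (0.57) and PTPN2 (0.21), where 9.16% of all genes were called higher. Fewer were called when any library was left out. In the constitutive proteasome list, again in control cells, 0 of 14 rose and 5 fell, among them PSMA7 by 0.25 and PSMB5 by 0.17. That count was 1 with library totals and, when a library was left out, 1 without replicate 1 of control cells with LY500307 or replicate 2 of control cells with vehicle, and 3 without replicate 2 of control cells with LY500307 or replicate 1 of control cells with vehicle. Of 13 transcription factors of class I promoters 2 rose and 1 fell, or 5 and 1 with library totals. Those that rose were RFXANK and RFX5, partners of NLRC5, by 0.27 and 0.18, and the count of 3 calls was 2 when any 1 of the 4 control libraries was left out. EZH2 and TRAF3 fell by 0.25 and 0.31 in control cells and fell by 0.35 and 0.35 in knockout cells.

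**Figure D5:**
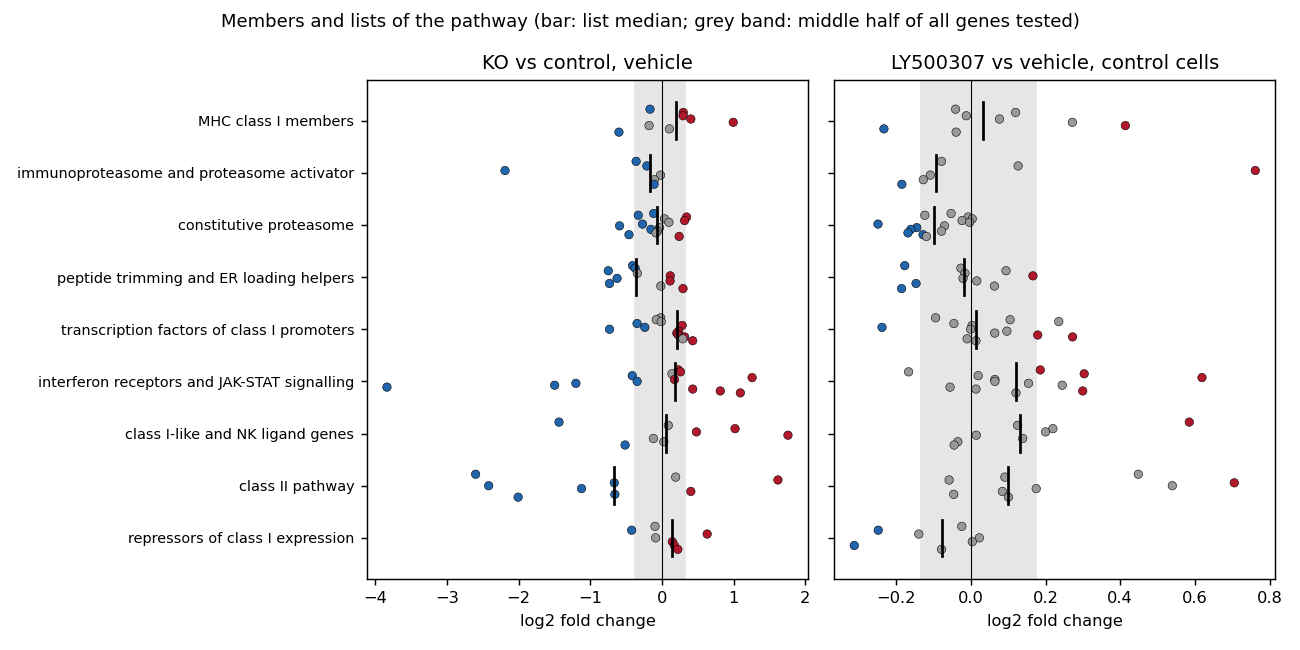
Log2 fold changes (x axes) of the members and of 8 lists of the pathway (y axis), for knockout against control cells under vehicle at left and LY500307 against vehicle in control cells at right, on different scales. Points are genes (red called higher, blue called lower, grey not called), black bars are list medians and the grey band is the interquartile range of all genes tested; the class II and the trimming and loading lists have their medians farthest to the left in the knockout panel.

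Members also varied together across the 8 libraries, as described by Pearson's r of log2 CPM, with libraries of a group sharing their treatment. HLA-E and NLRC5 had an r of 0.98, TAPBP and NLRC5 -0.95, HLA-E and TAPBP -0.94, and TAP1 and TAP2 -0.93. These values mostly restate the differences between the groups. Among 9740 genes averaging 5 CPM or more, INPP5B, MARCH8, SAT1, CDKN1A and AFF3 were most like NLRC5, each with an r of 0.99. TMEM53 (0.97), ACAA1 (0.92), ARSA (0.91), KANK2 (0.91) and SLC25A29 (0.90) were most like the mean of the members.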

How the data were processed

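RNA of 8 ES2 libraries was measured by single-end RNA sequencing. Each deposited file lists gene symbols with raw read counts. The authors used bcl2fastq, HTSeq and TopHat2 2.0.8b with the hg19 build, as the submitters' processing notes record. The counter's summary entries were removed; reads outside genes made up 10.7% to 12.8% and ambiguous reads 0.811% to 0.861% of uniquely aligned reads. Unused sample columns numbered 0. Chi-square per degree of freedom between duplicates was 3.05 to 4.30, above counting noise. Each library counted as a sample, although this spread does not show that duplicates came from separate cultures.

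Counts were fitted with edgeR 4.0.16 in R 4.3.3 (filterByExpr, TMM, a quasi-likelihood fit with a mean for each of 4 groups). This left 4 residual degrees of freedom with a prior of 30.1. Each of 6 comparisons was tested two-sided over 13498 genes, with Benjamini-Hochberg adjustment at 0.05. Of the genes listed, 5520 had no count. CPM are relative to the TMM-scaled library. Positions and lengths came from GENCODE 44 lifted to GRCh37, promoter sequences from RefSeq. The code was tested on simulated data. Alternatives were DESeq2 1.42.0, its size factors, unscaled totals, no low-count filter, only the groups compared, a replicate block, and leaving out each library. When a library was left out, the lone sample of its group was assumed to vary like the others.

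The members and lists were chosen with earlier results of these data known. From each list, genes past the threshold with the smallest p were named, up to 4; genes most like the members were taken by Pearson's r. One gene that this rule names is not reported here.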

Additional observations from a re-analysis of the deposited data

How the results depend on the processing

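Across the alternatives, 664 fold changes of the 8 tested members were compared with those reported: 607 kept their direction and side of the threshold, 30 lost a call, 8 gained one and 19 changed sign, all 19 of them not called in the report. With library totals the members called with LY500307 numbered 4 in control cells and 2 in knockout cells. The fold changes that changed sign were, in control cells, HLA-C (0.060), B2M (0.032) and TAPBP (0.033), and, in knockout cells, TAPBP (0.0063) and NLRC5 (0.038). With this scaling the median log2 fold change of all genes rose as well, from 0.0052 to 0.078 in control cells and from 0.010 to 0.070 in knockout cells. Each of the fold changes just named lay below the median of its comparison. Leaving out each library gave 0 to 4 members called with LY500307 in knockout cells, and 2160 to 3810 genes called with LY500307 in control cells, 1422 to 2736 in knockout cells and 95 to 262 for the interaction, against 3550, 2759 and 218 in all libraries. Over the same fits HLA-C ranged from -0.057 to 0.028 and TAPBP from -0.093 to 0.016 with LY500307 in control cells. In knockout cells NLRC5 ranged from -0.089 to 0.042, HLA-B from -0.13 to 0.010 and TAPBP from -0.11 to 0.012. In the interaction TAP2 ranged from -0.081 to 0.040 and TAPBP from -0.074 to 0.053. The interaction had 350 genes called without the low-count filter, which tested more genes. The causes of the other changes were not tested.

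Replicate numbers did not pair the libraries: deviations of libraries with the same number correlated by 0.000614 to 0.0700 between groups. A replicate block called 643 genes in the interaction and no member; it added the call of TAP2 between knockout and control cells under vehicle (adjusted p = 0.0433, edgeR) and that of HLA-C with both factors (adjusted p = 0.0308, edgeR).

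The depth leaves HLA-F, with 2 to 8 counts in a group, without a usable comparison. Sequence shared with other genes also limits the levels of the heavy chain genes, TAP1, TAP2 and TAPBP. The strand setting and the alleles of ES2 limit levels as well, and the part of each was not tested.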
